A study of Mus musculus with 12 samples.

Results

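The comparison described here sets dorsal root ganglia taken 1 day after spared nerve injury against naive ganglia, 3 RNA-seq libraries against 3, which is 6 of the 12 libraries of the series. Its members were chosen by the sample labels alone, with Atf3, Gadd45a and Sox11 as marker genes. The animals were adult C57BL/6J males of 9 to 10 weeks. Spared nerve injury, a standard model of neuropathic pain, ties and cuts 2 branches of the sciatic nerve, the common peroneal and the tibial, and leaves the sural intact. The naive group is taken as free of surgery from its label, and sham surgery was not analysed here: surgery and nerve damage cannot be told apart. The other 6 libraries, 3 each from days 3 and 7 after the same injury, entered the model for the spread between replicates and served to place the day 1 levels. The labels do not say which ganglia or which side were taken, how many of the neurons had a cut axon, or whether each library is 1 animal or several pooled. The p-values therefore reflect only how far these samples lay apart, which may be technical.

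A dorsal root ganglion holds the cell bodies of sensory neurons, wrapped by satellite glia, with Schwann cells, resident macrophages, fibroblasts and vessels around them. Cutting an axon sends signals back to the cell body, where stress-induced transcription factors of the AP-1 and ATF families switch on genes of growth, neuropeptides and cytokines while many genes for receptors, channels and transmitter handling are turned down. Atf3 is the most widely used marker of that switch, Sox11 is a transcription factor needed for axon regrowth, and Gadd45a is a stress gene of the DNA damage response that is also induced in axotomised neurons.

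Values are RPKM, read counts divided by gene length and library size. A library held 14333000 to 17953000 reads in these 6 samples, and a single read over 1 kb counted for 0.0557 to 0.0734 RPKM over the series. Replicates of a group correlated across genes, which are not independent, at Pearson's r of 0.957 to 0.976 on the log2 scale. The tissue label matched its defining transcripts, with the sensory neuron factors Isl1 at 28.1 to 38.5 RPKM and Pou4f1 at 33.0 to 47.0 RPKM in all 6 libraries, and the neuronal filament Prph at 116 to 204 RPKM. The summed level of 20 skeletal muscle markers was 80.9 RPKM in naive replicate 1 and 17.8 to 29.2 RPKM in the other 5. Naive replicate 1 and day 1 replicate 3 also had short genes raised against long ones (medians of the shortest and longest 20%), by 0.14 and 0.219 on the log2 scale, where the other 4 had -0.203 to -0.0691. The part of gene length in the results was not tested beyond the length correction in the closing section.

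At day 1, 487 of the 14195 genes tested had passed (3.43%, limma with Benjamini-Hochberg adjustment, adjusted p under 0.05). Of these, 369 were higher (2.6% of genes tested) and 118 lower (0.831%). The rises were the larger changes. A rise of at least 2-fold was seen for 142 genes and of at least 4-fold for 22, against 10 falls of at least 2-fold and 0 of at least 4-fold. The median log2 fold change was 0.88 among genes called higher, -0.71 among those called lower and -0.0055 over all genes tested. Genes called higher started from a median of 4.71 RPKM in naive ganglia and genes called lower from 16.3 RPKM, and 59 of the higher genes but 0 of the lower ones had a naive mean under 1 RPKM. The expression filter admits a gene that is low in naive mostly through injured libraries, and such a gene has little room to fall. This contrast in naive level is thus set in part in advance. In scaled values the naive and day 1 libraries did not overlap for any of the 487 genes called, so a lack of overlap sets no called gene apart. The number of calls depended on single libraries of the 6, which are meant below wherever a library is left out: 284 passed without naive replicate 1, 291 without naive replicate 2, 248 without naive replicate 3 and 218 without day 1 replicate 1. Of these, 267, 281, 241 and 209 were among the 487. Genes called lower numbered 36 to 73 without any library but day 1 replicate 2, and genes called higher 182 to 242 without the same 4 libraries as above.

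**Figure D1:**
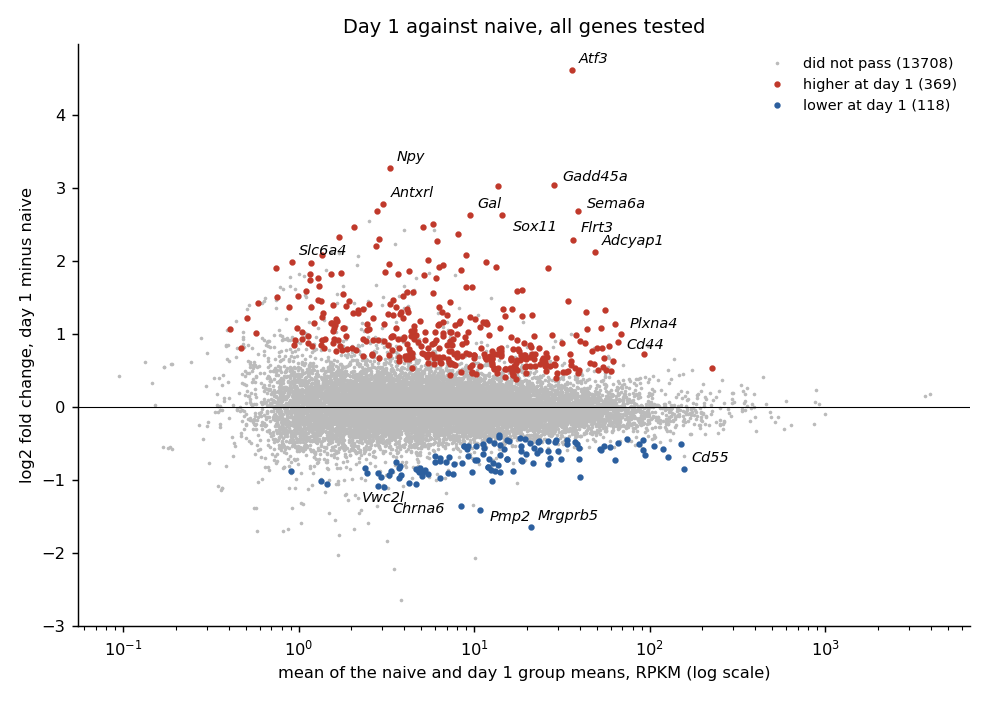
Log2 fold change of day 1 against naive (vertical axis) by mean level in RPKM (horizontal axis, log scale) for each of the 14195 genes tested, with genes called higher in red and lower in blue. The 369 higher genes reach a log2 change of 4.61, at Atf3, while the 118 lower genes end at -1.64, at Mrgprb5.

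The 3 marker genes were far above naive in every day 1 library. Atf3 stood at 2.33, 2.38 and 2.37 RPKM in the naive libraries and at 72.9, 57.4 and 77.9 RPKM at day 1, a log2 fold change (log2 change below) of 4.61 (SE 0.144, adjusted p = 2.18e-10). It had the largest rise of the genes tested, and its groups lay far apart. Gadd45a rose from 7.75, 4.48 and 5.01 RPKM to 58.3, 33.5 and 61.4 RPKM, a log2 change of 3.04 (SE 0.256, adjusted p = 2.87e-05). Day 1 replicate 2 held the lowest of the 3 day 1 levels of both genes, still several times the highest naive level. Sox11 rose from 3.5, 3.56 and 3.89 RPKM to 29.3, 25.7 and 21.1 RPKM, a log2 change of 2.64 (SE 0.178, adjusted p = 1.37e-06). In mm10, Gadd45a lies on chromosome 6 from 67035096 to 67037457 on the minus strand, and 19.1% of its annotated exon bases are shared with E230016M11Rik on the opposite strand. With no statement on strand in the sources, reads of the 2 genes cannot be told apart there.

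**Figure D2:**
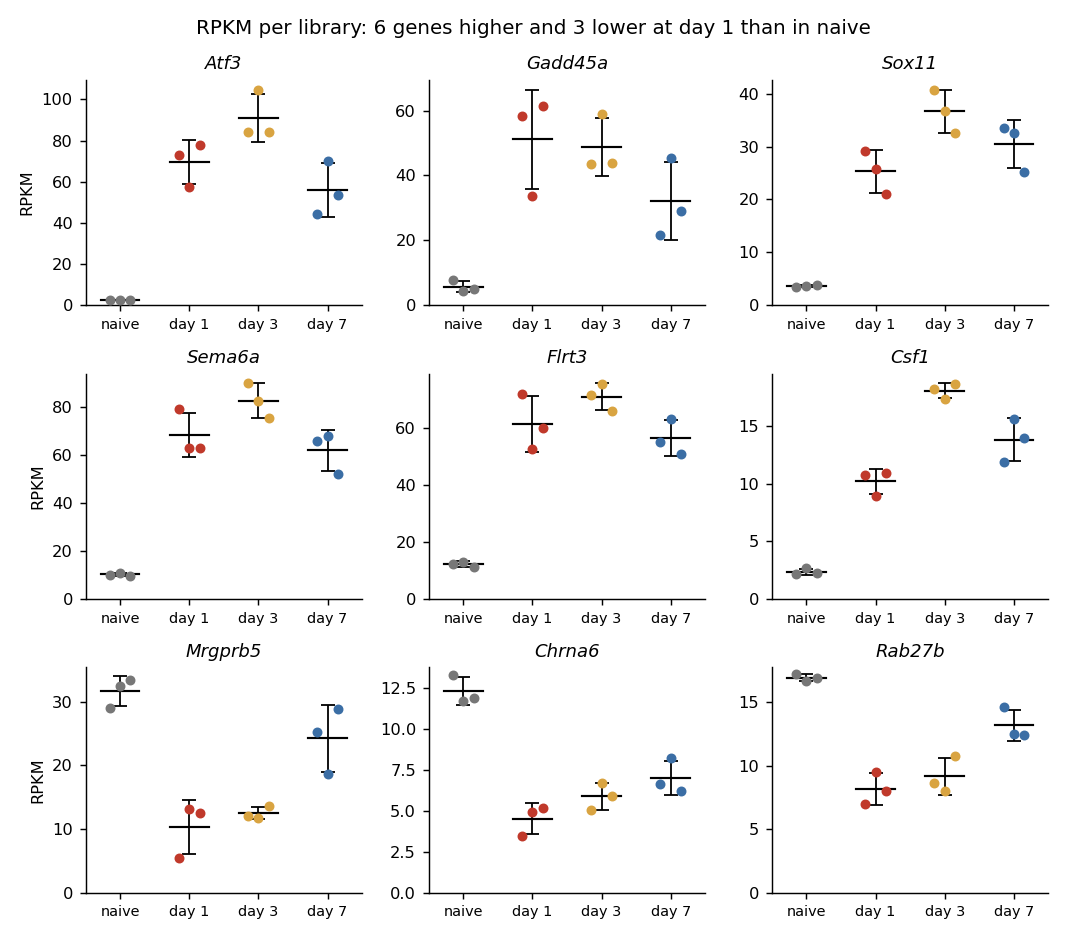
RPKM in each library (points, linear axes from 0) for 6 genes that rose and 3 that fell, by group, with the mean (bar) and SD (whiskers) of 3 libraries. Atf3 runs from 2.33 to 2.38 RPKM in naive and from 57.4 to 77.9 RPKM at day 1. In all 9 panels the naive and day 1 points do not overlap, which in scaled values held for all 487 genes called.

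The DNA just upstream of a RefSeq start of the marker genes is shown because AP-1 factors, to which Jun and Fosl2 belong, read short motifs in such windows. Each line gives 200 bases, from 250 to 51 bases before the RefSeq start on GRCm38.p6, 5′ to 3′ on the strand of the gene, with matches to TGANTCA, the AP-1 motif, in capitals. The windows lie at chr1:191183384-191183583 for Atf3, chr6:67037458-67037657 for Gadd45a, chr12:27342769-27342968 for Sox11 and chr3:92485932-92486131 for Sprr1a, each on the minus strand. In GENCODE M21, Atf3 spans 191170296 to 191218039, so its window lies inside the annotated gene, before an internal start. The DNA before its outermost annotated start was not searched.
Atf3: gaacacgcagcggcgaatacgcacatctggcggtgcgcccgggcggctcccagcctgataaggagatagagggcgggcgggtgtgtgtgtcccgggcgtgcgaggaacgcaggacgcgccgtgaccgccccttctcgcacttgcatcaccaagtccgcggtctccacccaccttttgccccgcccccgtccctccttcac
Gadd45a: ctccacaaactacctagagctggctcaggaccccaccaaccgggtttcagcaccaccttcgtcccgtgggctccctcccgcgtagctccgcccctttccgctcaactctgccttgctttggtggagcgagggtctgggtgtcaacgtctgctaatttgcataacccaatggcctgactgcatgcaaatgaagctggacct
Sox11: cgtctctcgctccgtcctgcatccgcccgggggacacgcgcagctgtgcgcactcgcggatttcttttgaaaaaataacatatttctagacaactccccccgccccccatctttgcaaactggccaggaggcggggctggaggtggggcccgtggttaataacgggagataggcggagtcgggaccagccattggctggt
Sprr1a: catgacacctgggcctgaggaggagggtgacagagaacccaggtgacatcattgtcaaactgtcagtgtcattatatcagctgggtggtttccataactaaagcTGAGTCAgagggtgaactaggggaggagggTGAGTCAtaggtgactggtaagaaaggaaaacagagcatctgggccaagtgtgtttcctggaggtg
Both strands were searched over the full 250 bases before the start for TGANTCA, for TGACGTCA, the cyclic AMP response element, and for TTCNNNGAA, a STAT motif. The windows of Atf3, Gadd45a and Sox11 held 0 matches to any of the 3, and so did both windows of Lmo7. Only exact matches were counted, and sites that differ from a motif by a base were not searched for. Sprr1a, which was picked for printing after its matches had been seen, held 2 TGANTCA matches, beginning 146 and 116 bases before the start. Over all 32851 RefSeq windows of this length, 6.75% held TGANTCA, 1.55% TGACGTCA and 7.02% TTCNNNGAA. A match is a run of letters and says nothing of binding.

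Of 36 transcription factors linked to nerve injury, 32 were tested, and 15 rose while 0 fell, with a median log2 fold change of 0.52. Beside this and each list count below, 2.6% of all genes tested were called higher and 0.831% lower. The count was 11 to 13 when 1 of the 6 libraries was left out, and without scaling between libraries 14 rose and 2 fell. Behind Atf3 and Sox11 came Lmo7, a LIM domain protein of cell junctions rather than a classical transcription factor, from 3.35 ± 0.554 to 13.5 ± 1.33 RPKM (SD, n = 3; log2 change 1.88, adjusted p = 5.29e-06). Fosl2, a Fos-family partner in AP-1, stood at 2.17, 2.46 and 2.91 RPKM in naive and at 11, 8.72 and 9.31 RPKM at day 1 (log2 change 1.76, SE 0.155, adjusted p = 1.78e-05). Jun, the partner of Fos proteins in AP-1, rose from 11, 7.51 and 8.23 RPKM to 28.9, 20.5 and 35.7 RPKM (log2 change 1.61, SE 0.17, adjusted p = 8.51e-05). For both genes every day 1 library lay above every naive library, which in scaled values held for each of the 369 genes called higher. Stat3, which carries cytokine signals to the nucleus, rose by 0.54 from 43.8 ± 2.55 to 64.0 ± 8.44 RPKM, a call that ended without naive replicate 3 (adjusted p = 0.0673) or day 1 replicate 1 (0.0612).

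Immediate early genes fire within minutes to hours of a stimulus. Of 26 listed, 18 were tested and 4 rose, namely Atf3, Fosl2, Jun and Dusp1, a phosphatase that switches off MAP kinases, with a median of 0.42 for the list and the same 4 calls in number whichever library was left out. Dusp1 rose from 4.71 ± 0.574 to 10.1 ± 1.8 RPKM, a log2 change of 1.03 (adjusted p = 0.0025). Fos stood at 0.737 RPKM in naive and 1.44 RPKM at day 1 (adjusted p = 0.229), and Egr1 at 2.78 and 3.51 RPKM (adjusted p = 0.48), and neither passed.

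Of 10 neuropeptide genes known for their induction by axotomy, 5 were tested and 4 rose, with a median of 2.12 and 3 or 4 rises with a library left out. Members low in all groups were left out by the expression filter, and Npy passed it only through injured libraries. The count and median of the list therefore lean towards rises. Adcyap1, which encodes the peptide PACAP, had the highest level of the 4, rising from 19.4, 15.7 and 18.4 RPKM to 94.7, 65.4 and 78.5 RPKM (log2 change 2.12, SE 0.178, adjusted p = 1.18e-05). Gal, the galanin precursor, rose from 2.40, 1.79 and 2.64 RPKM to 19.7, 12.6 and 17.5 RPKM (log2 change 2.62, SE 0.248). Npy rested on 5, 1 and 0 reads in the naive libraries and on 71, 35 and 64 reads at day 1, that is 0.640, 0.109 and 0 RPKM against 8.17, 4.40 and 6.54 RPKM. Its log2 fold change of 3.28 (SE 0.282, adjusted p = 2.44e-05) depends on the pseudocount of 0.5. Nts, the neurotensin precursor, rose by 1.3, a call that ended without naive replicate 2 (adjusted p = 0.124), naive replicate 3 (0.0941), day 1 replicate 1 (0.112) or day 1 replicate 3 (0.0824). Nmb, the fifth tested member, stood at 36.0 RPKM in naive and 28.3 RPKM at day 1.

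Peptides made by nociceptors at rest gave 1 call. Of 10 tested genes only Vgf, a secretory granule protein, rose, from 1.67, 1.33 and 1.5 RPKM to 7.42, 4.40 and 9.10 RPKM (log2 change 1.86, SE 0.23, adjusted p = 0.000325), and the median of the list was -0.05. Calca, which encodes CGRP, stood at 217 ± 40.9 RPKM in naive and 200 ± 46.7 RPKM at day 1 (adjusted p = 0.872). Tac1, which encodes substance P, stood at 181 ± 36.2 and 165 ± 26.8 RPKM (adjusted p = 0.86).

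Among secreted growth factors and cytokines, 27 of 41 listed genes were tested, of which 4 rose and 0 fell, with a median of 0.21. Csf1, the growth factor of macrophages and microglia, stood at 2.16, 2.65 and 2.23 RPKM in naive and at 10.7, 8.94 and 10.9 RPKM at day 1 (log2 change 1.92, SE 0.127, adjusted p = 1.37e-06). Fst, the activin antagonist follistatin, rose from 0.643 ± 0.261 to 5.07 ± 1.17 RPKM (log2 change 2.29, SE 0.213). Fam150b, a ligand of the receptor kinase Alk, rose from 3.29, 3.28 and 2.71 RPKM to 15.7, 17.1 and 11.6 RPKM (log2 change 2.08, SE 0.228, adjusted p = 0.000119). Bdnf, the neurotrophin released by nociceptors in the spinal cord, rose from 3.92 ± 0.836 to 10.0 ± 1.47 RPKM (log2 change 1.27), with 14.4% of its exon bases shared with an opposite-strand gene. The groups did not overlap for any of these 4, which in scaled values held for all 487 genes called. Il6, a cytokine of the gp130 family, stood at 0.834, 0.110 and 0.121 RPKM in naive and 1.5, 1.58 and 0.922 RPKM at day 1 and did not pass (adjusted p = 0.0786), and the chemokine Ccl2 had 1.52 against 2.96 RPKM (adjusted p = 0.196).

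On the receiving side, 3 of 24 tested neurotrophic receptors and their binding proteins rose, with a median of -0.03. Igfbp3, a binding protein for insulin-like growth factors, rose from 2.86, 1.78 and 2.27 RPKM to 16.6, 10.6 and 14.4 RPKM (log2 change 2.36, SE 0.209, adjusted p = 1.82e-05). Gfra1, the co-receptor for GDNF, about doubled, from 25.4 ± 2.34 to 50.6 ± 4.45 RPKM (log2 change 0.99), and Acvr1, a type I receptor for bone morphogenetic proteins, rose by 0.76. In gp130 and Stat3 signalling 3 of 18 tested genes rose, Stat3, Socs2 and Osmr, with a median of 0.26. That count fell to 1 without naive replicate 2 and to 0 without naive replicate 3 or day 1 replicate 1.

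Of 41 tested genes of axon growth 8 rose with 0 falls and a median of 0.25, and 6 to 8 of them with a library left out. Flrt3, a transmembrane adhesion protein, stood at 12.3, 13.1 and 11.1 RPKM in naive and at 72.0, 52.5 and 59.9 RPKM at day 1 (log2 change 2.29, SE 0.144, adjusted p = 1.04e-06). Ecel1, a neuronal endopeptidase, rose from 0.293 ± 0.215 to 3.83 ± 1.04 RPKM (log2 change 2.46) and Itga7, the laminin-binding integrin subunit, from 8.47 ± 0.202 to 26.6 ± 4.43 RPKM (1.59). Stmn4, a regulator of microtubules, rose by 1.81. Gap43, the growth cone protein most often used as a regeneration marker, stood at 44.5, 29.0 and 30.5 RPKM in naive and 66.0, 42.5 and 75.4 RPKM at day 1. In these deposited values the groups overlapped, since day 1 replicate 2 lay below naive replicate 1. Scaling for the test divided day 1 replicate 2 by 0.9518 and naive replicate 1 by 1.048, which put the former above the latter. Gap43 did not pass (log2 change 0.81, adjusted p = 0.0709).

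Sprr1a, a cornified envelope protein that regenerating axons re-express, had the widest spread of the large rises. It stood at 2.12, 3.09 and 1.42 RPKM in naive and at 46.5, 9.54 and 19.5 RPKM at day 1, a log2 change of 3.02 (SE 0.526, adjusted p = 0.0142). The call ended without naive replicate 1 (adjusted p = 0.0557) or naive replicate 3 (0.0665), without the 2 libraries with muscle transcripts (0.0705), in a fit of the naive and day 1 libraries alone (0.0934) and with voom on recovered reads (0.115).

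Of 33 tested guidance ligands and receptors 3 rose, with a median of -0.098, beside 2.6% of all genes tested called higher. With a library left out 2 or 3 rose. Sema6a, a transmembrane semaphorin, stood at 10.1, 10.9 and 9.69 RPKM in naive and at 78.8, 62.9 and 62.7 RPKM at day 1 (log2 change 2.68, SE 0.162, adjusted p = 9.06e-07). Plxna4, a plexin that binds class 6 semaphorins as well as pairing with neuropilin, rose from 45.7 ± 5.96 to 91.2 ± 8.41 RPKM (log2 change 1.00, SE 0.16, adjusted p = 0.00238). Both genes were thus higher in every day 1 library. Sema4f rose by 0.53, a call that ended without any of the naive replicates or without day 1 replicate 1 or 3 (adjusted p 0.0635 to 0.159).

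**Figure D3:**
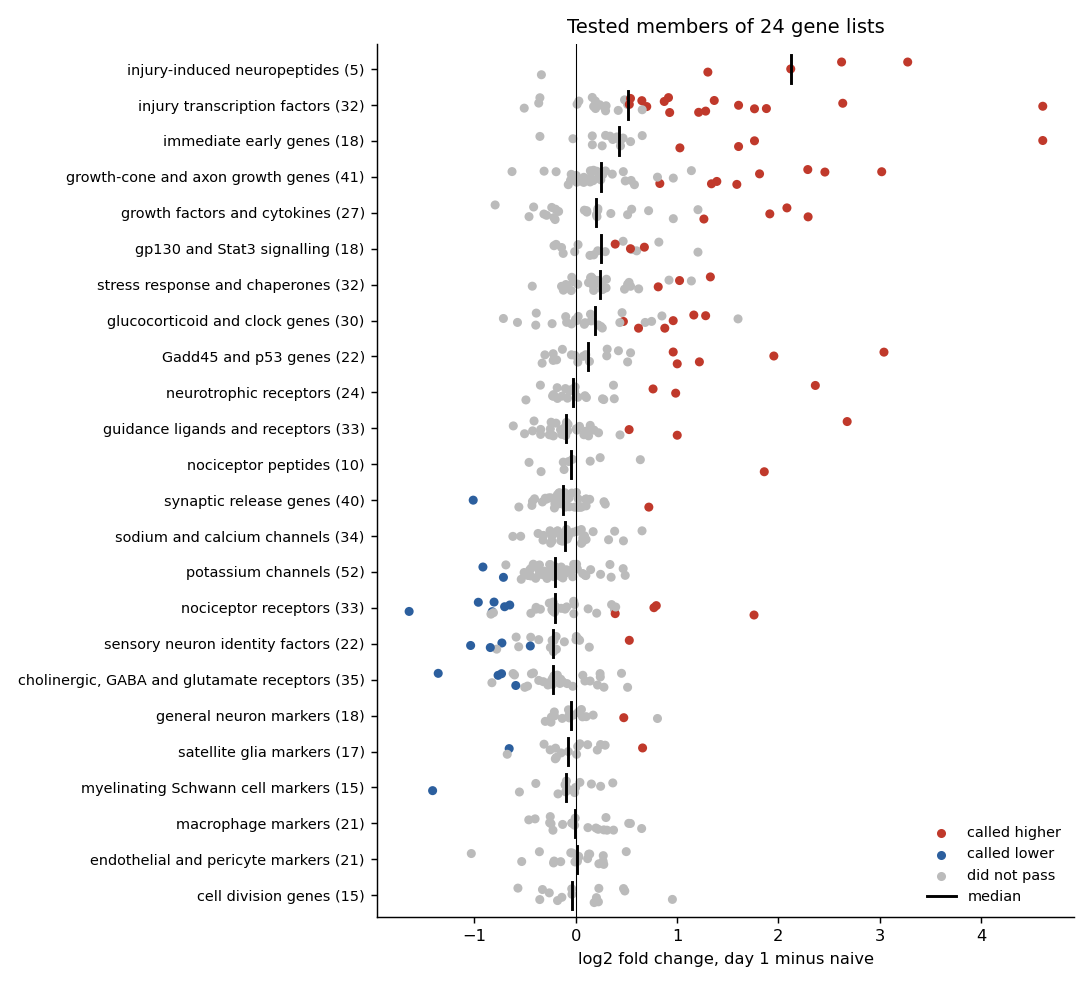
Log2 fold change of day 1 against naive for the tested members of 24 gene lists (number tested in brackets), with members called higher in red, called lower in blue, others in grey and the median as a black bar. The median runs from 2.12 for injury-induced neuropeptides to -0.23 for cholinergic, GABA and glutamate receptors, and macrophage markers lie around 0 with 0 calls.

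Besides Gadd45a, stress and cell cycle arrest genes moved in part. Gadd45g rose from 1.68, 0.441 and 1.22 RPKM to 6.91, 4.57 and 4.80 RPKM (log2 change 1.96, SE 0.254, adjusted p = 0.000507). In all, 5 of 22 tested Gadd45 and p53 genes rose, with a median of 0.12, and 2 without any 1 of the naive replicates or day 1 replicate 1 or 3. Among 32 tested stress and chaperone genes 3 rose, with a median of 0.24: the antioxidant enzymes Srxn1 (31.2 ± 2.43 to 79.7 ± 15.7 RPKM, log2 fold change 1.33) and Txnrd1 (0.81), and the pseudokinase Trib3. Trib3 no longer passed without naive replicate 1 (adjusted p = 0.0904) or 3 (0.0752) or day 1 replicate 1 (0.133) or 2 (0.0534). Of 30 glucocorticoid and clock genes 6 rose, with a median of 0.19. Bhlhe41 and Nfil3, both repressors in the circadian clock, rose by 0.88 and 1.28, whereas the count for the list fell to 2 without naive replicate 2 or 3 or day 1 replicate 1 or 3. Bhlhe41 shares 19.0% of its exon bases with an opposite-strand gene.

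Further genes among the 20 largest rises belong to no single pathway. Gpr151, an orphan receptor of habenular and injured sensory neurons, rose from 1.33 ± 0.387 to 10.3 ± 4.52 RPKM (log2 change 2.51, SE 0.308, adjusted p = 0.000729). Smim3, a small membrane protein, rose from 0.949, 1.14 and 1.56 RPKM to 9.79, 6.45 and 10.9 RPKM, and Sez6l, a complement-domain protein of neurons, from 1.80 ± 0.379 to 10.5 ± 1.33 RPKM. Adam8, a metalloprotease, rose by 1.95 and Tifa, an adaptor of NF-kappaB signalling, by 1.92. Pigf, which acts in the assembly of GPI anchors, rose from 11, 9.97 and 11.4 RPKM to 42.1, 47.8 and 35.6 RPKM, but 31.6% of its exon bases are shared with Rhoq on the opposite strand. Rhoq, a small GTPase, rose too, from 25.0 ± 1.16 to 61.9 ± 7.28 RPKM, so the share of each gene in these reads cannot be told apart. Mir6374 (4.42 ± 0.67 to 18.8 ± 1.37 RPKM, log2 fold change 1.99) is the entry of a microRNA gene, and its reads may belong to a longer transcript.

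Some genes were all but silent in naive ganglia. They were picked as the largest rises among called genes with a naive mean under 0.5 RPKM. Such genes pass the expression filter mostly through injured libraries. Their low naive level and their rise were thus set by the choice, and the values are a description. Antxrl, an anthrax-toxin-receptor-like gene, held 38 reads over the 3 naive libraries and 596 over the 3 day 1 libraries, or 0.387 ± 0.0682 and 5.67 ± 1.61 RPKM (log2 change 2.78, adjusted p = 1.72e-05). Of its exon bases 12% are shared with A630023A22Rik on the opposite strand, which rose from 0.236 ± 0.144 to 3.16 ± 0.55 RPKM. Steap1, a membrane metalloreductase, went from 27 to 300 reads, although naive replicate 2 supplied 21 of the 27. Slc6a4, the serotonin transporter, went from 10 to 235 reads, that is from 0.0755 ± 0.0674 to 1.76 ± 0.109 RPKM (log2 change 1.99, adjusted p = 9.83e-05). Mia2 and C1qtnf9 rose by 2.08 and 1.83. Mir6358 had 0 reads in the naive libraries and 3, 3 and 1 at day 1, too few for a fold change.

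The largest fall was that of a receptor of sensory neurons. Fewer cells of a type and less RNA per cell cannot be told apart in whole ganglia, here and in all that follows. Of 33 tested receptors of nociceptors 6 fell and 4 rose, with a median of -0.21. The falls numbered 2 without any 1 of the naive replicates or day 1 replicate 1. Mrgprb5, a Mas-related receptor, fell from 28.9, 32.5 and 33.4 RPKM to 5.50, 13.2 and 12.5 RPKM (log2 change -1.64, SE 0.264, adjusted p = 0.00404). It belongs to a family of close copies between which reads can be shared. No day 1 library reached a naive library.

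The receptors that rose were Cckbr, Npy1r, Il31ra and Osmr. Cckbr, a receptor for cholecystokinin, rose from 0.421, 0.192 and 0.345 RPKM to 2.78, 1.79 and 2.20 RPKM (log2 change 1.76, SE 0.194, adjusted p = 0.000121). Npy1r, which binds the peptide encoded by Npy, rose from 12.1 ± 1.56 to 21.2 ± 2.56 RPKM (0.80), and Il31ra, the receptor of the itch cytokine IL-31, from 13.2 ± 1.12 to 22.8 ± 2.21 RPKM (0.77). Osmr rose by 0.39, but its call ended without any 1 of the 6 libraries (adjusted p 0.0768 to 0.193).

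Of 35 tested cholinergic, GABA and glutamate receptor genes 4 fell and 0 rose, with a median of -0.23, and 2 or 3 fell with a library left out. Chrna6, a nicotinic receptor subunit, fell from 13.3, 11.7 and 11.9 RPKM to 3.48, 4.93 and 5.19 RPKM (log2 change -1.36, SE 0.157, adjusted p = 0.000189). Gria2, the AMPA receptor subunit that limits calcium entry, fell from 15.5, 17.1 and 16.2 RPKM to 9.82, 8.79 and 9.38 RPKM (log2 change -0.77, SE 0.148, adjusted p = 0.0096). Both held under every library left out. Grik1, a kainate receptor subunit, fell by 0.59, a call kept only without day 1 replicate 2 (adjusted p 0.0522 to 0.115 without the others).

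Ion channels gave few calls. Of 34 tested sodium and calcium channel genes 0 passed in limma, although 10 had an unadjusted p under 0.05, and voom called 1 higher and 2 lower. The median was -0.11. Scn10a, the sodium channel most particular to nociceptors, stood at 207 ± 9.02 RPKM in naive and 194 ± 12.8 RPKM at day 1 (adjusted p = 0.837), and Scn9a at 195 ± 8.3 and 150 ± 8.88 RPKM (adjusted p = 0.277). Cacna2d1, the target of gabapentin, had 107 ± 4.37 and 169 ± 22.7 RPKM (log2 change 0.66, adjusted p = 0.0758). It missed the threshold. Its groups did not overlap, but an exact permutation test of 3 against 3 cannot go below p = 0.1. Of 52 tested potassium channel genes 2 fell, with a median of -0.20, beside 0.831% of all genes tested called lower. With a library, or the 2 with muscle transcripts, left out, 0 to 3 fell. In the same fits 0 or 1 of the sodium and calcium channel genes rose. Dpp10, an accessory subunit of A-type channels, fell from 50.2, 50.7 and 48.1 RPKM to 27.6, 31.9 and 30.5 RPKM. It no longer passed (0.0555) once day 1 replicate 1 was left out. Kcnj3, a G-protein-gated inward rectifier, fell by 0.91 and lost its call without any 1 of the naive replicates or day 1 replicate 1 or 3 (0.0528 to 0.0993), and 31.1% of its exon bases are shared with an opposite-strand gene.

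Among transcription factors that set sensory neuron identity, 4 of 22 tested fell and 1 rose, with a median of -0.23 and 1 to 3 falls with a library left out. Onecut1 fell from 5.66, 5.85 and 6.29 RPKM to 2.72, 2.44 and 2.72 RPKM (log2 change -1.04, SE 0.176, adjusted p = 0.00383), with 52.8% of its exon bases shared with a same-strand annotated gene. Etv1, a factor of proprioceptors, fell by 0.73 (79.6 ± 3.64 to 47.9 ± 6.16 RPKM) and Pou4f2 by 0.84. The call of Etv1 ended without any of the naive replicates or day 1 replicate 1 or 3 (adjusted p 0.0605 to 0.151), and that of Pou4f2 without any of the naive replicates or day 1 replicate 1 (0.0669 to 0.108). Klf7, the riser, had the highest level of all genes called higher, predicted and unnamed ones left out. It stood at 172, 191 and 195 RPKM in naive and 290, 258 and 253 RPKM at day 1. Its log2 fold change was 0.53, and its call (adjusted p = 0.045) ended without any of the naive replicates or day 1 replicate 1 or 2 (0.0871 to 0.221). It shares 39.4% of its exon bases with opposite-strand genes.

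Synaptic release genes, 40 of them tested, held 1 rise and 1 fall, with a median of -0.12. Over all genes tested, 2.6% were called higher and 0.831% lower. Rab27b, a GTPase that docks secretory vesicles, fell from 17.2, 16.7 and 16.9 RPKM to 7.01, 9.52 and 8.01 RPKM (log2 change -1.01, SE 0.157, adjusted p = 0.00188). Syt4, a synaptotagmin of dense-core vesicles, rose from 70.2 ± 2.48 to 116 ± 9.66 RPKM (log2 change 0.72, adjusted p = 0.00477), with 14.5% of its exon bases shared with an opposite-strand gene. Other genes among the 20 largest falls that kept their call whichever library was left out were Vwc2l (-1.06), a secreted protein with von Willebrand factor C domains, and the sialyltransferase St6gal2 (-0.97). The same held for the lipase-family gene Pnpla3 (-0.94), the prokineticin receptor Prokr1 (-0.89), the diacylglycerol kinase Dgkg (-0.87) and the orphan nuclear receptor Esrrg (-0.87). Cd55, an inhibitor of complement on the cell surface, had the highest level of all genes called lower, predicted and unnamed ones left out. It fell from 226, 183 and 197 RPKM to 95.5, 114 and 124 RPKM (log2 change -0.86, SE 0.132, adjusted p = 0.00185). Further genes of high level, Lrrn1, Ano3, Ckap5 and Acpp fell by 0.51, 0.68, 0.54 and 0.45, and each lost its call without at least 4 of the 6 libraries (adjusted p 0.0541 to 0.186).

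Of 21 tested macrophage markers 0 passed in limma and 0 with voom, 1 had an unadjusted p under 0.05, and the summed level of the 25 markers in the files was 80.9 to 109 RPKM in naive and 82.7 to 90.3 RPKM at day 1. Neutrophil markers summed to 21.1 to 25.2 RPKM in naive and 13.0 to 20.8 RPKM at day 1, with 0 of 8 tested genes called by either tool and 0 at an unadjusted p under 0.05. Of 29 tested fibroblast and matrix genes 2 rose and 1 fell, with a median of -0.07. The metalloproteinase Mmp16 rose by 1.34, the protease inhibitor Timp1 by 0.67 and the collagen Col3a1 fell by 0.71. Timp1 lost its call without naive replicate 1 or 3 or day 1 replicate 1 or 3 (adjusted p 0.0625 to 0.0958), and Col3a1 without the 2 libraries with muscle transcripts together (0.0508). Of 4 tested markers of central glia, Aldh1l1 rose by 1.08 and Slc1a2 by 0.92, and 0 passed without naive replicate 3 or day 1 replicate 1 and 1 without naive replicate 1 or day 1 replicate 2. All 11 markers of that list summed to only 8.58 to 10.8 RPKM in naive and 10.9 to 13.4 RPKM at day 1, with Olig1 at 0 in all 6 libraries. Of the exon bases of Aldh1l1, 13.4% are shared with other annotated genes. Lymphocyte markers summed to at most 3.86 RPKM and 0 passed the expression filter. Markers of vessels summed to 120 to 124 RPKM in naive and 119 to 123 RPKM at day 1, with 0 of 21 called in limma, 4 at an unadjusted p under 0.05 and 2 called lower with voom. Of 15 cell division genes 0 passed, with 1 at an unadjusted p under 0.05 and 1 called higher with voom. C4b, a complement component, rose from 4.06, 4.23 and 4.43 RPKM to 8.98, 9.20 and 8.87 RPKM (log2 change 1.01, SE 0.128, adjusted p = 0.000396), and its reads can be shared with its near copy C4a.

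Summed levels of glial and Schwann cell markers overlapped between the groups. Satellite glia markers summed to 747 to 1010 RPKM in naive and 613 to 869 RPKM at day 1, and myelinating Schwann cell markers to 1220 to 1750 and 1080 to 1660 RPKM. General neuron markers had 2980 to 3940 and 2370 to 3780 RPKM. For these 3 lists the lowest sum was that of day 1 replicate 2, and the highest that of naive replicate 1. Pmp2, a fatty-acid-binding protein of peripheral myelin, was the only myelin gene of 15 tested that fell, from 22.1, 11.7 and 14.4 RPKM to 4.14, 5.68 and 7.06 RPKM (log2 change -1.41, SE 0.288, adjusted p = 0.0185). That call ended without naive replicate 1 (0.0717) or 3 (0.0626) or day 1 replicate 1 (0.0904) or 2 (0.0558), and 86.9% of its exon bases are shared with a same-strand annotated gene. Repair Schwann cell markers, which include Jun, summed to 87.5 to 123 RPKM in naive and 104 to 159 RPKM at day 1, and of 8 tested only Jun rose, with a median of 0.29. In satellite glia, Ednrb, an endothelin receptor, fell by 0.66 and Glul, glutamine synthetase, rose by 0.66, the first losing its call without naive replicate 2 or 3 or day 1 replicate 2 or 3 (adjusted p 0.0566 to 0.0813), the second without any library but day 1 replicate 2 (0.058 to 0.195).

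Day 1 was also tested directly against the later days, comparisons that share the day 1 libraries with the one above. At day 3, 72 genes (0.507%) differed from day 1, and at day 7, 138 genes (0.972%). Of the genes that differed from naive at day 1, with predicted and unnamed ones left out, 7 were higher at day 1 than at both later days and 14 lower than at both. The counts were smaller with a library left out: 13 to 32 at day 3 for any 1 of the 6 libraries, and at day 7 64, 82 and 54 without day 1 replicates 1, 2 and 3 and 62 and 70 without day 7 replicates 2 and 3.

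Fam150b led the genes with a day 1 peak. It stood at 11.6 to 17.1 RPKM at day 1, at 3.31, 5.92 and 6.77 RPKM at day 3 and at 3.91, 4.96 and 3.46 RPKM at day 7, differences from day 1 of -1.46 (SE 0.228, adjusted p = 0.0145) and -1.76 (adjusted p = 0.00349) on the log2 scale. The day 3 call ended without day 1 replicate 1 (0.0607) or 2 (0.0625) or day 3 replicate 2 (0.0534). Olfr920, an entry in the olfactory receptor family, had 36.1, 32.3 and 23.4 RPKM at day 1 against 12.4 ± 1.03 RPKM in naive, 14.9 ± 1.71 RPKM at day 3 and 15.2 ± 1.95 RPKM at day 7. Pde4c, a phosphodiesterase that breaks down cyclic AMP, had 6.37 ± 0.414 RPKM at day 1 and 3.23 ± 0.353, 3.14 ± 0.427 and 2.83 ± 0.573 RPKM in naive and at days 3 and 7. Fam107a, a stress-responsive actin-binding protein, had 7.22 ± 0.459 RPKM at day 1 against 3.32 ± 0.257 RPKM in naive, 4.28 ± 0.797 RPKM at day 3 and 3.89 ± 0.576 RPKM at day 7. Fkbp5, a co-chaperone of the glucocorticoid receptor, and Sytl3, a partner of Rab27 proteins, rose by 0.62 and 0.51 against naive, with calls lost without at least 5 of the 6 libraries (adjusted p 0.0521 to 0.159).

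Of the 14 genes called against naive and below both later days, the 6 furthest below were Sprr1a, Nts, Gal, Npy, Anxa1 and Cckbr. Anxa1, an anti-inflammatory annexin, rose by 0.83 against naive. That call ended without naive replicate 2 (adjusted p = 0.133) or 3 (0.102) or day 1 replicate 1 (0.123) or 2 (0.085). Gal was 2.17 higher at day 3 (64.7, 93.2 and 76.9 RPKM) and 1.73 higher at day 7 (32.2, 77.9 and 72.4 RPKM) than at day 1 on the log2 scale. Sprr1a reached 256 ± 42.5 RPKM at day 3 and 286 ± 130 RPKM at day 7, from 25.2 ± 19.1 RPKM at day 1, and Nts 46.4 ± 11.3 and 47.0 ± 19.4 RPKM, from 9.57 ± 3.12 RPKM. Of the 12 genes taken by the rule in both directions, 2 kept the day 3 call and 7 the day 7 call with each library of the groups left out in turn. Lost at day 3 were all but Gal and Anxa1, and at day 7 Cckbr, Fam107a, Fkbp5, Olfr920 and Sprr1a, with adjusted p of 0.0519 to 0.232.

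**Figure D4:**
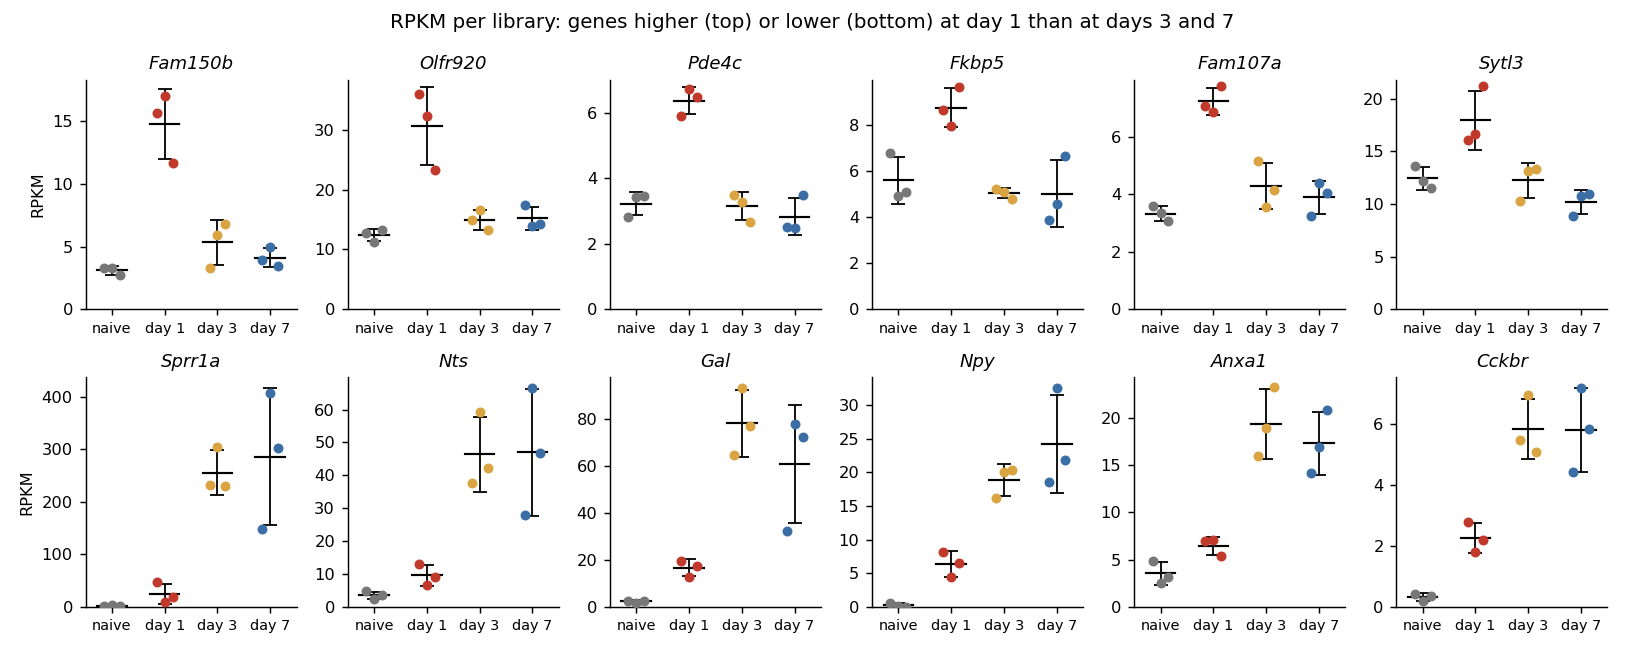
RPKM in each library (points, linear axes from 0) with the mean and SD of 3 libraries, for 6 genes higher at day 1 than at both later days (top row) and 6 lower (bottom row). Olfr920 falls from 30.6 RPKM at day 1 to 14.9 RPKM at day 3, while Gal goes from 16.6 to 78.3 RPKM.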

How the data were processed

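RNA of 12 dorsal root ganglion libraries was measured. Per the labels' protocols, 500 pg of it went into a Nugen Ovation amplification, followed by TruSeq Nano library preparation. The submitters' processing notes name limma, edgeR, HTSeq, STAR, bcl2fastq (version 2.17) and the mm10 build. What each did, the annotation and the strand setting are not stated in those sources. The values the authors deposited were read as RPKM, a unit inferred from the values: for 21561 of 21597 detected genes (99.8%) they were whole multiples of 1 read, with a tolerance of 0.05 reads. Amplified reads carry no molecular identifiers here and so are not independent molecules. Of 24060 symbols, 27 had been turned into dates and are not named.

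The expression filter asked for 1 RPKM or more in 3 or more libraries (14195 genes). Libraries were scaled by trimmed means of log ratios (30% of ratios and 5% of levels trimmed at each end). The deposited RPKM were then put on a log2(RPKM + 0.5) scale, where changes of low genes are understated, while printed RPKM are as deposited. limma 3.58.1 in R 4.3.3 with statmod 1.5.0 fitted 4 group means to the 12 libraries (8 residual degrees of freedom, variance trend, robust), with two-sided tests, Benjamini-Hochberg adjustment over all genes and a threshold of 0.05. The fit was also run on simulated counts with the same dispersion for every gene and no library effects but depth. That is simpler than these data. An exact permutation test of 3 against 3 cannot go below p = 0.1. Groups came from the sample titles. Coordinates are from GENCODE M21.

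The genes, lists and tests were chosen with earlier results of these data known. Named were the markers, the 20 largest rises and falls among called genes with an average log2 value above 2 and groups that did not overlap, the 5 called genes of highest level in each direction, the 8 largest rises from a naive mean under 0.5 RPKM, up to 4 called members of each list and up to 3 more as values, and the 6 genes highest and the 6 lowest at day 1 against both later days. Predicted and unnamed genes were left out. Other settings tried were the scaling, the pseudocount, the filter, array weights, voom on recovered reads, a replicate block, a fit of the 6 libraries alone, a length correction added after seeing the data, and leaving out libraries. Some genes that the rule named are not reported here.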

Additional observations from a re-analysis of the deposited data

Results flagged for a closer look

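The 12 genes below passed limma's contrasts of day 1 with both later days, which share the day 1 libraries. They were picked by these contrasts, so the values are a description, and 10 of the 12 lost the day 3 call and 5 the day 7 call with a library left out. On the log2 scale, day 3 minus day 1 and day 7 minus day 1 were -1.46 and -1.76 for Fam150b, -1.03 and -1.0 for Olfr920, -0.95 and -1.09 for Pde4c, -0.77 and -0.81 for Fkbp5, -0.74 and -0.85 for Fam107a and -0.57 and -0.82 for Sytl3. They were 3.55 and 3.61 for Sprr1a, 2.2 and 2.16 for Nts, 2.17 and 1.73 for Gal, 1.49 and 1.82 for Npy, 1.47 and 1.31 for Anxa1 and 1.17 and 1.15 for Cckbr.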

How the results depend on the processing

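Of the 112 genes named by the rule, 67 kept their call under every alternative that tested them, 45 lost it under at least 1, and 0 reversed. For day 1 against naive, 487 calls (369 higher, 118 lower) became 1844 (1037 and 807) with array weights, 277 (228 and 49) without the 2 libraries with muscle transcripts, and 764 in all with 242 lower under the length correction. voom on recovered reads called 184 lower. Leaving out 1 replicate of the naive or day 1 group gave 218 to 379 calls, 182 to 295 higher and 36 to 84 lower, and leaving out 1 of day 3 or day 7, which share the model, 415 to 618. Genes called higher made up 75.8% of calls, against 56.2% (array weights) to 84.3% (without naive replicate 3) over all alternatives, and 68.9% without scaling. The labels do not say whether replicate numbers pair the samples. The deviations of same-numbered naive and day 1 libraries correlated at -0.043, 0.0982 and -0.14, and those of differently numbered ones at -0.178 to 0.214. Deviations from the mean of so few libraries are tied to each other, so these values cannot settle pairing. With the number as a replicate block 362 genes were called, 360 of them among the 487, 73 were lower, and Sprr1a no longer passed (adjusted p = 0.0505). Between day 1 and day 3, 72 calls became 349 with array weights, 147 with voom, 31 with the replicate block, 129 with the length correction and 13 to 32 with a replicate of either group left out. Between day 1 and day 7, 138 became 293, 238, 91 and 214 in the same order, 57 without the 2 libraries with muscle transcripts and 54 to 120 with a replicate of either group left out. The causes were not tested. Genes near 0 in naive ganglia rest on a few reads each, which limits how well their fold change is known.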

Other observations

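Gene families were counted by symbol after the day 1 results had been seen, with 2.6% of all genes tested called higher and 0.831% lower. Some members, such as Il31ra and Slc1a2, also belong to lists above. Families counted but not described rose in 2 of 21 (integrin subunits), 1 of 6 (galectins), 2 of 11 (annexins), 2 of 24 (olfactory and vomeronasal receptors) and 7 of 436 (microRNA entries) tested genes, with 0 falls. Of 31 tested interleukin, colony-stimulating factor and TNF receptor genes 8 rose and 0 fell, with a median log2 fold change of 0.29. The rises numbered 4 without naive replicate 1 or 3 or day 1 replicate 1, 5 without day 1 replicate 2 and 6 without either of the other two. Il4ra, the shared receptor chain for IL-4 and IL-13, rose from 2.15 to 5.70 RPKM (log2 fold change 1.22, adjusted p = 0.000596) and Il1r1, the receptor of IL-1, from 5.17 to 9.73 RPKM (0.85). Both kept their call under every alternative run. Of 23 tested serine protease inhibitors of the serpin family 5 rose and 0 fell, but the rises were 3 when naive replicate 1 or 2 was dropped and 2 when it was day 1 replicate 1 or 3. Among the 5 was Serpinb1a, an inhibitor of neutrophil proteases, which went from 18.1 to 50.4 RPKM (1.46, adjusted p = 0.000578). Lgals3, the lectin galectin-3, rose from 1.83 to 6.08 RPKM (1.52).

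Adhesion genes were counted likewise: 3 of 15 tested cadherins and 6 of 26 tested genes of the Slitrk, Lrrn, Lrrc4, Cntn and Ntng families fell, and 0 rose in either set. Without day 1 replicate 1, 0 cadherins and 1 gene of the other set fell. Leaving out another of the naive or day 1 libraries gave 1 or 2 cadherins (2 only without naive replicate 1) and 1 to 4 of the other set (4 without naive replicate 1 or day 1 replicate 2, 3 without day 1 replicate 3, 2 without naive replicate 2 and 1 without naive replicate 3). Cntn6, a contactin, fell from 4.06 to 1.84 RPKM (log2 fold change -0.96, adjusted p = 0.00596) and did so under every alternative that tested it. Of 249 tested solute carriers 14 rose and 1 fell, and with 1 of the 6 libraries left out 6 to 10 rose, with 6 without naive replicate 1 or day 1 replicate 1, 8 without naive replicate 3 and 9 without day 1 replicate 2. The 1 fall was lost without day 1 replicate 1. Slc2a1, the glucose transporter of vessels and glia, rose from 4.87 to 11.8 RPKM (1.17, adjusted p = 0.000887), and Slc4a8, a bicarbonate transporter of neurons, from 6.70 to 14.8 RPKM (1.09).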
